A study of Mus musculus with 75 samples.

Results

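The lungs of BLEO-IPF mice on day 42 after bleomycin were compared with those of BLEO-IPF mice on day 14. The 7 libraries labelled bleomycin day 42 and the 12 labelled bleomycin day 14 were taken from the count table by library name, 19 of 75 in all, and 16221 of the 55536 genes in the table passed the low-count filter. BLEO-IPF mice were male C57BL/6JRj mice, an inbred strain, aged 12 to 14 weeks when given a single intratracheal instillation of bleomycin sulphate, an antibiotic that breaks DNA strands. They were kept in the study only if body weight had dropped mildly to moderately in the first week, so mice with little or severe loss were not represented on either day. The paper reports deaths among BLEO-IPF mice over the course of the study. Mice of day 42 had thus survived longer and were older at sampling than those of day 14. Neither can be told apart from the day. The 10 control mice (CTRL) received no bleomycin: the sample labels name them as given saline and the protocol text as untreated. The labels give CTRL mice no sampling day. Each library was made from a different mouse, from the inferior lobe on the right side, so no mouse was followed over time, and the lungs had been rinsed to collect lavage fluid before they were excised, which removes part of the cells of the airspaces. A level in such bulk tissue cannot tell fewer cells of a type from less RNA per cell. The tissue carried its defining lung transcripts on both days. *Sftpc*, the surfactant protein made by type 2 (AT2) alveolar cells, was at no less than 3342 CPM (a gene's counts over those of its library, the usual scale of abundance), in any of the 19 mice. *Scgb1a1*, the main secretory protein of airway club cells, was at no less than 1947 CPM, and *Ager*, a membrane receptor of type 1 (AT1) alveolar cells, at no less than 1223 CPM.

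Bleomycin kills alveolar epithelial cells, and the lung answers with leakage of plasma, recruitment of monocytes that become macrophages, cell division, and fibroblasts that lay down matrix. Repair of the alveolus is carried by AT2 cells, which secrete surfactant and can pass through a keratin-rich transitional state to become the flat AT1 cells of the gas exchange surface. In the mouse this injury can wane after the fibrotic phase, and it is a matter of each cell type and pathway how far its transcripts return to those of an uninjured lung.

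Total counts ranged from 9859808 to 13419601 on day 14 and from 10134347 to 11620555 on day 42, and depth did not separate the days. Mitochondrial transcripts took 0.865% to 1.73% of counts on day 14, 1.28% to 1.78% on day 42 and 1.62% to 2.09% in CTRL mice. The 10 most abundant genes took 4.50% to 5.91%, 6.06% to 6.96% and 6.23% to 7.47% of counts, and their part in the results was not tested. No 2 libraries of a day agreed within sampling noise. Transcripts of tissues that can be carried along with a lobe (red blood cells, thymus, heart, skeletal muscle and fat) held 31 tested genes, of which 0 were called between the days by edgeR or by DESeq2 and 0 had an unadjusted p under 0.05. Their summed levels overlapped, with cardiac transcripts at 20 to 399 CPM on day 14 and 14.6 to 209 CPM on day 42 and hemoglobins and other red blood cell genes at 225 to 1690 and 631 to 1430 CPM. The skeletal muscle genes *Acta1*, *Myh1* and *Myh2* were not tested, though they reached 5828, 3731 and 3137 counts in the highest mouse of the series. Neuronal and Schwann cell genes, also listed as other tissue, were not among the 31, and 5 of the 9 tested were called lower on day 42. How reads that fit overlapping genes, both strands or several gene copies were counted was not given in the sources used here, so counts could be shared for the genes named below that overlap another tested gene (*Abca3*, *Ackr1*, *Atp6v1c2*, *Bmp6*, *Ccl6*, *Ccna2*, *Ccne2*, *Cd74*, *Cd9*, *Ctla4*, *Cxcl10*, *Elovl1*, *Esr2*, *Fgf2*, *Folr2*, *Gapdh*, *Gja5*, *Hopx*, *Il1a*, *Irf7*, *Jun*, *Junb*, *Lox*, *Mfap4*, *Mmp11*, *Nkx2-1*, *Nr1d1*, *Nrg1*, *Pkm*, *Prc1*, *Ptger4*, *Ptgfr*, *S100b*, *Slc48a1*, *Spp1*, *Stab1*, *Tagln*, *Tcf21*, *Timp1*, *Vcan*, *Zranb3* and *mt-Nd2*) and for those with near-identical relatives (the eosinophil-associated ribonuclease *Ear1*, *Serpina3m* and *Serpina3n*, *Ly6i*, the glutathione S-transferase *Gstm1*, *C4b*, *Klra8*, immunoglobulin, H2 and mitochondrial genes).

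Of the genes tested, 2467 were higher on day 42 than on day 14 (15.2% of all tested) and 3054 were lower (18.8%), by edgeR's quasi-likelihood test with Benjamini-Hochberg adjustment at 0.05. Against CTRL, the same model called 5262 genes higher (32.4%) and 4856 lower (29.9%) on day 14, and 2215 higher (13.7%) and 1786 lower (11.0%) on day 42. The median absolute log2 fold change over all genes was 0.31 for day 14 against CTRL, 0.18 for day 42 against CTRL and 0.21 for day 42 against day 14. These 3 comparisons share mice and are set side by side only. A difference of at least 1 on the log2 scale was reached by 249 of the genes called higher on day 42 and 662 of those called lower. In 169 genes (1.04%) all 7 mice of day 42 lay above all 12 of day 14, and in 435 genes (2.68%) all lay below. The median log2 fold change over all genes was -0.01, so the balance of the 2 directions was close to even, and it turned when libraries were scaled by total counts alone (2802 higher and 2697 lower) or by upper quartiles (2789 and 2746).

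To describe the change by biology, 64 lists of genes were used, 29 of cell type markers, 29 of pathways and 6 of other tissues; collagen chains and TGFβ pathway genes were left out of them. Of 967 listed genes, 917 were tested, 157 were higher and 299 lower on day 42 than on day 14, beside the 15.2% and 18.8% of all genes. In the text that follows, a gene is said to have risen or fallen only where its adjusted p was under 0.05, ± is the standard error of the log2 fold change, and fold changes are of day 42 against day 14 unless CTRL is named. Counts of called members are to be read beside the shares of all genes. Against CTRL these shares were 32.4% higher and 29.9% lower on day 14, and 13.7% and 11.0% on day 42. Counts of 1 to 3 called members rested on single mice in many lists and are given as values only. The level of a list in a mouse is the median over its members of log2 CPM minus the CTRL mean, so that CTRL mice lie near 0.

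**Figure D1:**
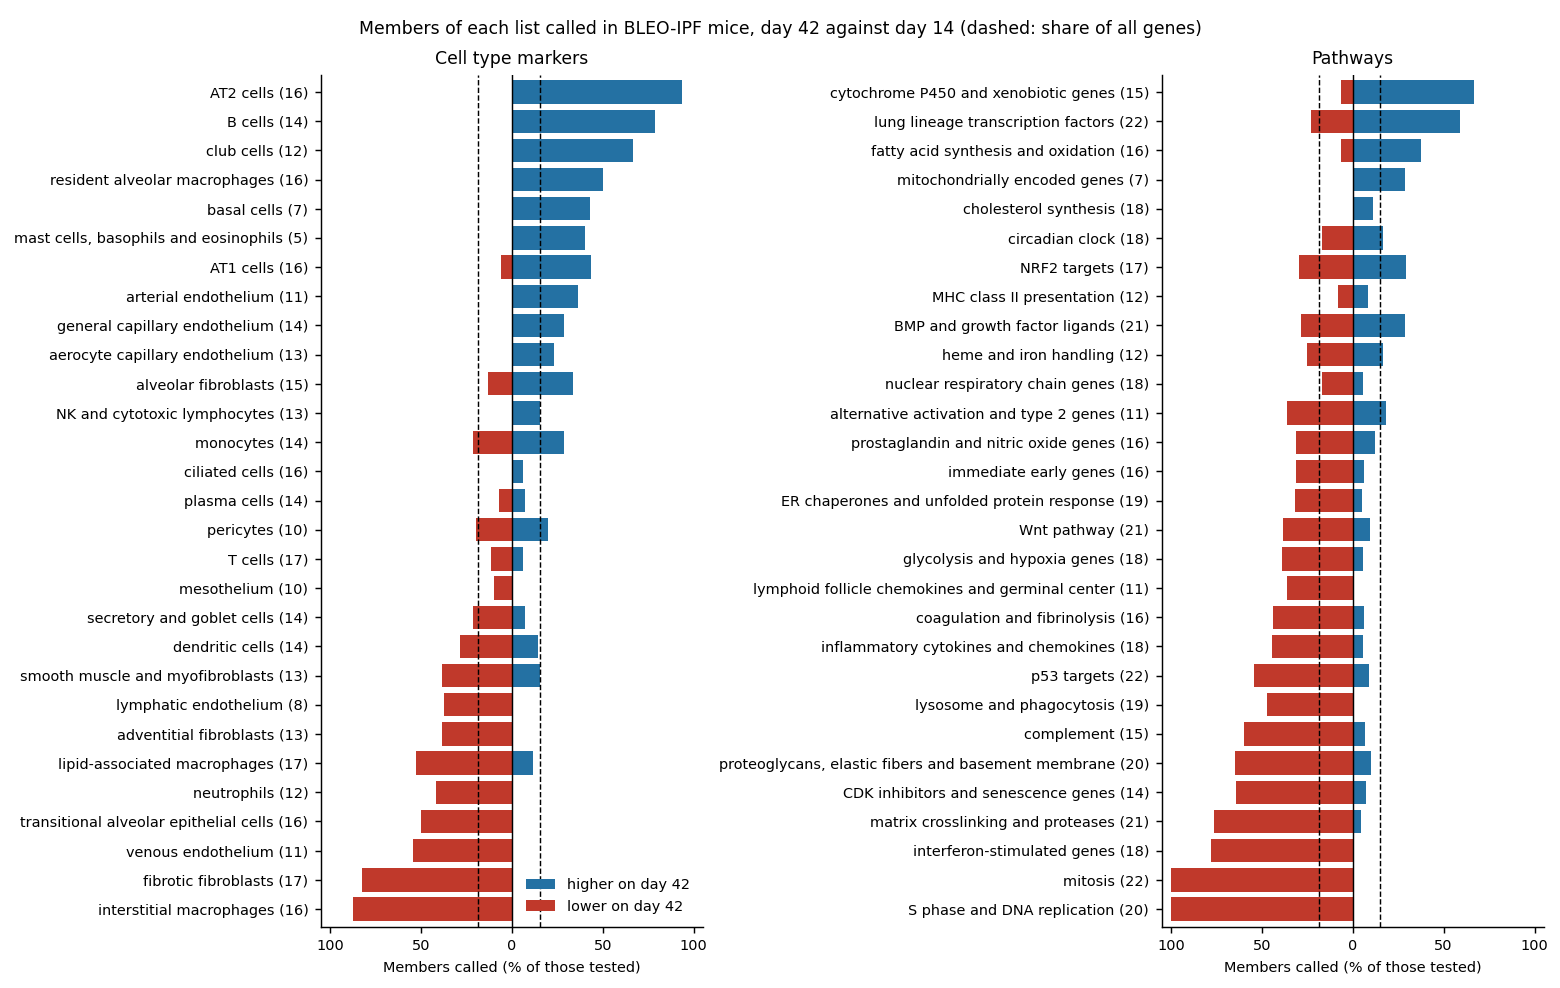
Share of the tested members of each list (percent, horizontal axis) called higher on day 42 (bars to the right) or lower (bars to the left) than on day 14, for cell type markers and for pathways; dashed lines mark the shares over all genes tested, 15.2% and 18.8%. The S phase and mitosis lists fill the whole left side, and AT2 markers have the longest bar on the right, 15 of 16.

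**Figure D2:**
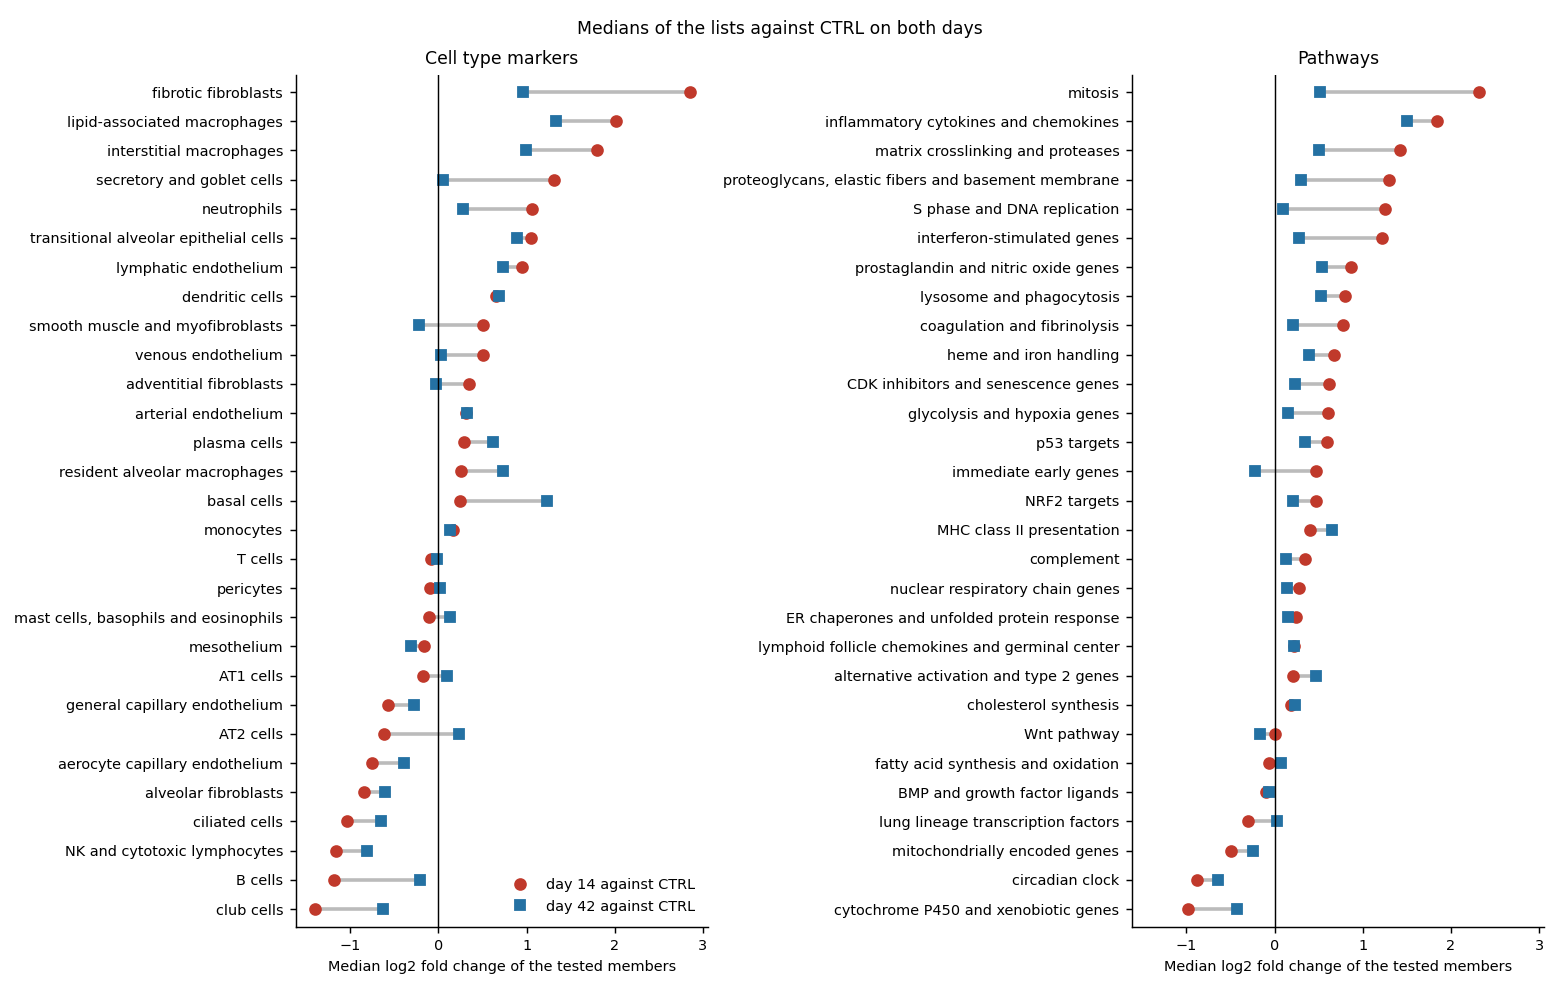
Median log2 fold change of the tested members of each list against CTRL on day 14 (circles) and on day 42 (squares), for cell type markers and for pathways; the vertical line is 0. Fibrotic fibroblast markers moved from 2.85 to 0.95 and mitosis genes from 2.32 to 0.51, whereas lipid-associated macrophage markers stood at 2.01 and 1.33.

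Genes of cell division fell throughout. All 22 of 22 mitosis genes and all 20 of 20 genes of S phase and DNA replication fell from day 14 to day 42, with median log2 fold changes of -1.801 and -1.04. The level of the mitosis list was 1.59 to 2.59 in D14 mice and 0.14 to 1.15 in D42 mice, and that of the S phase list 0.73 to 1.497 and -0.03 to 0.29, so neither overlapped between the days. The same counts were found when any of the 19 mice was left out. *Ccna2*, the cyclin A of S and G2 phase, was at 24.9 to 42.99 CPM around a median of 32.8 on day 14 and 6.605 to 11.9 CPM around 9.14 on day 42 (log2 fold change -1.88 ± 0.24, adjusted p = 3.35e-08). *Ccnb2*, a cyclin that drives entry into mitosis, was at 10.9 to 21.5 CPM around a median of 16.1 on day 14 and 2.98 to 7.43 CPM around 4.59 on day 42 (log2 fold change -1.86 ± 0.24, adjusted p = 4.15e-08). *Mki67*, the gene of the proliferation antigen Ki-67, was at 50.96 to 142 CPM around a median of 96.9 on day 14 and 16.2 to 49.4 CPM around 26.3 on day 42 (log2 fold change -1.77 ± 0.26, adjusted p = 4.18e-07). In all 3 every mouse of day 42 lay below every mouse of day 14. *Ccne2*, a cyclin of the passage into S phase, was at 5.46 to 12.6 CPM around a median of 9.14 on day 14 and 1.29 to 3.76 CPM around 2.98 on day 42 (log2 fold change -1.72 ± 0.23, adjusted p = 4.7e-08). *Ccne1*, its close relative, had a log2 fold change of -2.06 ± 0.28. *Pcna*, the sliding clamp of DNA polymerase, was far more abundant and fell less, from a median of 76.5 to 50.6 CPM, a log2 fold change of -0.52, again without overlap.

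Not all of them were back at the CTRL level. Against CTRL on day 42, *Ccna2* remained higher (log2 fold change 0.69 ± 0.25, adjusted p = 0.0352), as did *Cdk1*, the kinase that cyclins A and B activate (log2 fold change 0.78 ± 0.28, adjusted p = 0.0311). *Ccne1* and *Ccne2* stood at log2 fold changes of -0.03 and -0.01 against CTRL, and *Mki67* at 0.51 (adjusted p = 0.152). The median against CTRL was 0.51 for the mitosis list and 0.10 for the S phase list. Mouse 7 of day 42 had the highest mitosis level of its group, 1.15, against 0.14 to 0.56 in the other 6.

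Because the mitosis genes moved together, their promoters are shown. The letters searched, on both strands of the 250 bases before the start of each gene as RefSeq places it (GRCm38.p6), were CCAAT, bound by the factor NF-Y, and TTTGAA, the cell cycle genes homology region (CHR) through which the DREAM complex represses such genes. Of the 22 mitosis genes 18 had a promoter in the RefSeq table; 16 held CCAAT (88.9%), 7 held TTTGAA (38.9%) and 7 held both (38.9%). Over 11956 tested genes with a promoter the shares were 39.7%, 13.4% and 4.95%, and over all 27025 promoters they were 37.5%, 18.3% and 6.45%. Of the 16 S phase genes with a promoter 10 held CCAAT (62.5%), 2 held TTTGAA (12.5%) and 2 held both (12.5%). E2F letters (TTCCCGC or TTGGCGC, either strand) were found before 5 of the 16 S phase genes (31.2%), 3 of the 18 mitosis genes (16.7%) and 11.0% of tested genes (6.45% of the table). A match of letters is a description and not a binding site. The 4 mitosis genes with the smallest adjusted p whose last 150 bases before the start held both are printed 5′ to 3′ on the strand of the gene, with CCAAT and TTTGAA, or their complements ATTGG and TTCAAA, in capitals. They are of *Prc1*, which bundles the microtubules of the spindle midzone (chr7:80294326-80294475, plus strand), *Cdk1* (chr10:69352913-69353062, minus strand), *Kif11*, the motor that separates spindle poles (chr19:37376232-37376381, plus strand), and *Top2a*, the topoisomerase that untangles sister chromatids (chr11:99024190-99024339, minus strand). The last 26 bases of the first 2 lie inside the gene as Ensembl annotates it, and the other 2 lie wholly upstream of theirs.
Prc1: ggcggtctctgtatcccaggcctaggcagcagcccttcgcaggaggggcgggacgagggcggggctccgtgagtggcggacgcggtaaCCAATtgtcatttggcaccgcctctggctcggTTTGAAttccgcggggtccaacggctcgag
Cdk1: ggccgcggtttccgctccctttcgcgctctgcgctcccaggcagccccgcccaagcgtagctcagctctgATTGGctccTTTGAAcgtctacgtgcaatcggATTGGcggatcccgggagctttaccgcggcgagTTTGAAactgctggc
Kif11: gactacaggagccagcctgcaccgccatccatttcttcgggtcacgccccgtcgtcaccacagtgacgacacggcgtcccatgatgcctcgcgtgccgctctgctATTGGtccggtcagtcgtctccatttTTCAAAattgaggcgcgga
Top2a: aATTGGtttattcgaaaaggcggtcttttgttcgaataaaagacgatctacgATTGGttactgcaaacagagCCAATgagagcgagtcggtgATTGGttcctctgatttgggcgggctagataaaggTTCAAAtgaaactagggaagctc
The 4 genes whose promoters are printed had log2 fold changes of -1.94 ± 0.25 (*Prc1*), -1.97 ± 0.26 (*Cdk1*), -1.78 ± 0.24 (*Kif11*) and -1.82 ± 0.26 (*Top2a*) from day 14 to day 42.

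Among p53 targets 12 of 22 fell and 2 rose (median -0.27), and 13 were still above CTRL on day 42, beside the 13.7% of all genes. *Cdkn1a*, which encodes the kinase inhibitor p21 and was listed among the transitional epithelial markers, was at 199.8 to 566 CPM around a median of 241 on day 14 and 107 to 143.5 CPM around 131 on day 42 (log2 fold change -1.13 ± 0.16, adjusted p = 1.54e-07). It fell in every mouse below the lowest mouse of day 14 and yet stayed well above the CTRL range of 22.6 to 49.3 CPM (log2 fold change 2.02 ± 0.16, adjusted p = 1.44e-15). *Ccng1*, a p53 target of uncertain function, had a log2 fold change of -0.58 ± 0.09, and its log2 fold change against CTRL was 0.88. *Aen*, a nuclease induced by p53, was at 29.9 to 37.5 CPM around a median of 33.2 on day 14 and 20.96 to 24.9 CPM around 21.99 on day 42 (log2 fold change -0.55 ± 0.08, adjusted p = 4.73e-07). *Mdm2*, the ligase that degrades p53, fell by less, with a log2 fold change of -0.32, and so did *Bax*, a pore protein of apoptosis, with -0.31. *Gdf15*, a secreted stress factor, had a log2 fold change of -0.79 and remained at 2.07 against CTRL. The 2 p53 targets that rose were *Rrm2b*, a ribonucleotide reductase subunit for DNA repair, and *Bbc3*, which encodes the apoptosis trigger PUMA. *Rrm2b* was at 20.2 to 40.65 CPM around a median of 32.7 on day 14 and 36.1 to 46.9 CPM around 45.7 on day 42 (log2 fold change 0.50 ± 0.11, adjusted p = 0.000389).

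Of the kinase inhibitors and senescence genes 9 of 14 fell and 1 rose. *Cdkn1b*, the gene of the inhibitor p27 of resting cells, was at 56.8 to 88.3 CPM around a median of 76.1 on day 14 and 94.5 to 116 CPM around 108 on day 42 (log2 fold change 0.55 ± 0.08, adjusted p = 6.69e-07). Its D42 mice all lay above the D14 mice. *Lmnb1*, the lamin lost in senescence, was at 32.99 to 58.3 CPM around a median of 45.5 on day 14 and 20.7 to 28.6 CPM around 22.7 on day 42 (log2 fold change -0.93 ± 0.13, adjusted p = 1.23e-07), all below. *Lmnb1* is counted among the 9 that fell although its loss goes with senescence, so the count of this list gives no direction for senescence. *Cdkn2a*, the p16 and Arf locus, was at 0.833 to 3.86 CPM around a median of 2.099 on day 14 and 1.38 to 4.92 CPM around 2.34 on day 42 and did not pass the test between the days (adjusted p = 0.705). Its log2 fold change against CTRL on day 42 was 2.37. *Timp1*, an inhibitor of metalloproteinases, fell with a log2 fold change of -2.799.

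The genes with the largest differences, among those in which no mouse of day 42 overlapped a mouse of day 14, came from several compartments. Of the 8 largest decreases *Thbs4*, a thrombospondin of the matrix, was at 18.3 to 99.65 CPM around a median of 64.9 on day 14 and 0.858 to 11.7 CPM around 2.78 on day 42 (log2 fold change -3.77 ± 0.59, adjusted p = 1.08e-06). *Pappa*, a protease that frees insulin-like growth factor from its binding proteins, was at 4.92 to 91.4 CPM around a median of 13.55 on day 14 and 1.21 to 3.655 CPM around 2.92 on day 42 (log2 fold change -3.52 ± 0.55, adjusted p = 1.14e-06). *Adam12*, a metalloprotease of activated mesenchymal cells, was at 7.22 to 52.1 CPM around a median of 16.3 on day 14 and 2.68 to 5.02 CPM around 4.46 on day 42 (log2 fold change -2.43 ± 0.41, adjusted p = 5.55e-06). Against CTRL on day 42 *Pappa* stood at -0.52 and *Adam12* at 0.42 on the log2 scale, and neither passed that test, whereas *Thbs4* remained above all CTRL mice. The serpins *Serpinb9b*, *Serpina3m* and *Serpina3n*, the latter pair relatives of antichymotrypsin, were also among the 8. *Serpina3n* was the most abundant of them, at 297 to 1606 CPM around a median of 622 on day 14 and 112 to 165 CPM around 122 on day 42 (log2 fold change -2.51 ± 0.34, adjusted p = 6.36e-08). *Etv4*, an ETS transcription factor downstream of receptor tyrosine kinases, had a log2 fold change of -2.83, and *Rtn4rl2*, a receptor of myelin inhibitors in neurons, -2.54.

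Of the 8 largest increases the first was *Ear1*, a ribonuclease of resident alveolar macrophages, at 0.3975 to 4.27 CPM around a median of 2.06 on day 14 and 5.73 to 19.6 CPM around 11.25 on day 42 (log2 fold change 2.33 ± 0.29, adjusted p = 2.22e-08). This brought it 5.04-fold above day 14 and into the CTRL range of 8.35 to 16.6 CPM in 5 of 7 mice. *Pla2g2d*, a secreted phospholipase, was at 0.0994 to 2.59 CPM around a median of 1.13 on day 14 and 3.002 to 7.62 CPM around 5.06 on day 42 (log2 fold change 2.03 ± 0.34, adjusted p = 3.98e-06). *Itih1*, which encodes a protein that links to hyaluronan, had a log2 fold change of 1.49 ± 0.22. Their D14 mice were the low group in each. *Atp6v1c2*, a subunit of the proton pump, had a log2 fold change of 1.47 ± 0.18. *Aox3*, an aldehyde oxidase, was at 15.3 to 101 CPM around a median of 45.7 on day 14 and 113 to 187 CPM around 132 on day 42 (log2 fold change 1.44 ± 0.25, adjusted p = 1.03e-05). Of these, *Pla2g2d* was above CTRL on day 42 (log2 fold change 0.90 ± 0.34, adjusted p = 0.0448) and *Aox3* still below it (log2 fold change -0.79 ± 0.27, adjusted p = 0.0257). *Arhgef38*, *Dixdc1* and the surfactant gene *Sftpa1* completed the 8, with log2 fold changes of 1.43, 1.32 and 1.39.

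In the alveolar epithelium nearly all AT2 transcripts rose. Of 16 AT2 markers 15 rose and none fell (median 0.88), the same count without any of the 19 mice, and the levels did not overlap, at -1.55 to 0.08 on day 14 and 0.09 to 0.40 on day 42. *Sftpa1*, a collectin of surfactant, was at 693 to 3460 CPM around a median of 1508 on day 14 and 3558 to 5135 CPM around 4287 on day 42 (log2 fold change 1.39 ± 0.24, adjusted p = 5.81e-06). *Sftpc* was at 3342 to 13540 CPM around a median of 6910 on day 14 and 13690 to 17990 CPM around 15660 on day 42 (log2 fold change 1.08 ± 0.20, adjusted p = 2.19e-05). In both, every mouse of day 42 lay above every mouse of day 14. *Hc*, which encodes complement C5 and is expressed by mouse AT2 cells, was at 48.9 to 990.2 CPM around a median of 305 on day 14 and 661 to 1013 CPM around 915 on day 42 (log2 fold change 1.35 ± 0.31, adjusted p = 0.000451). Here 1 mouse of day 14, mouse 5, reached into the D42 range, and the next highest was at 617 CPM, below every D42 mouse. *Lamp3*, a protein of lamellar bodies, rose with a log2 fold change of 0.94, and *Abca3*, the lipid pump of lamellar bodies, with 0.50. The marker that did not pass was *Lyz1*, the lysozyme gene, at 17.7 to 269 CPM around a median of 82.65 on day 14 and 120.2 to 209 CPM around 165.5 on day 42 (log2 fold change 0.65 ± 0.38, adjusted p = 0.183). It stayed below the CTRL range in all 7 mice (log2 fold change -1.09 ± 0.41, adjusted p = 0.0415). The list as a whole did not: 5 of the 16 markers were above CTRL on day 42 and 1 below (median 0.23), beside 13.7% and 11.0% of all genes. The level of the list lay within the CTRL range of -0.12 to 0.20 in 2 of 7 D42 mice and above it in the others.

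AT1 markers had a median log2 fold change of -0.17 against CTRL on day 14, beside -0.62 for AT2 markers, and 7 of 16 rose to day 42 (median 0.28). *Rtkn2*, an effector of small GTPases, was at 40.7 to 195 CPM around a median of 131 on day 14 and 183 to 263 CPM around 238 on day 42 (log2 fold change 0.95 ± 0.19, adjusted p = 6.45e-05). *Cldn18*, the main claudin of alveolar tight junctions, was at 491 to 923 CPM around a median of 770.3 on day 14 and 965.5 to 1282 CPM around 1166 on day 42 (log2 fold change 0.69 ± 0.11, adjusted p = 2.71e-06). Its D42 mice lay above all D14 mice and were also higher than CTRL (log2 fold change 0.51 ± 0.12, adjusted p = 0.000855). *Ager* was at 1223 to 2345 CPM around a median of 1837 on day 14 and 2075 to 2617 CPM around 2489 on day 42 (log2 fold change 0.38 ± 0.13, adjusted p = 0.0179). *Hopx*, a homeodomain protein of AT1 cells, was at 350 to 564 CPM around a median of 450.3 on day 14 and 452 to 761 CPM around 598 on day 42 (log2 fold change 0.38 ± 0.16, adjusted p = 0.0529) and did not pass. It did pass without mouse 4, 11 or 12 of day 14 or mouse 7 of day 42 (adjusted p of 0.035 to 0.0449). It also passed with DESeq2 (0.0441), with scaling by total counts (0.0318) or upper quartiles (0.04), with the replicate block (0.0346) and with day 14 and day 42 mice alone in the fit (0.00915). The single AT1 marker that fell was *Pdpn*, podoplanin, which lymphatic endothelium and activated fibroblasts also carry (log2 fold change -0.29 ± 0.12, adjusted p = 0.0469). Its call was lost without any one of mice 4, 7, 9, 10, 11 or 12 of day 14 or mice 2, 3, 4, 5 or 6 of day 42, with an adjusted p of up to 0.107.

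Markers of the transitional state fell in part. Of 16 markers 8 fell and 0 rose (median -0.38), and 12 were above CTRL on day 42, beside the 13.7% of all genes. *Cldn4*, a claudin of the stressed epithelium, was at 25.98 to 102 CPM around a median of 45.01 on day 14 and 4.72 to 23.7 CPM around 10.3 on day 42 (log2 fold change -2.07 ± 0.38, adjusted p = 1.83e-05), with no overlap. The keratins that define the state differed less. *Krt8* was at 179 to 296.5 CPM around a median of 211 on day 14 and 138 to 226 CPM around 195 on day 42 (log2 fold change -0.21 ± 0.13, adjusted p = 0.2). *Krt18* had a log2 fold change of -0.22. The groups overlapped in both keratins, and both were above CTRL on day 42, with log2 fold changes of 0.39 and 0.38. *Sprr1a*, a cornified envelope protein, and *Tnip3*, an inhibitor of NF-κB signalling, fell with log2 fold changes of -1.17 and -1.33.

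Transcription factors of the lung lineage were called in both directions. Of 22 factors 13 rose and 5 fell; the levels of the list were -0.50 to -0.15 on day 14 and -0.11 to 0.04 on day 42, and all 7 D42 mice lay within the CTRL range of -0.12 to 0.09. *Nkx2-1*, the master regulator of lung epithelium, was at 85.8 to 167 CPM around a median of 104 on day 14 and 182 to 225.5 CPM around 198 on day 42 (log2 fold change 0.82 ± 0.13, adjusted p = 1.1e-06), with no overlap. The epithelial forkhead factor *Foxa1* was at 13.9 to 33.9 CPM around a median of 18.8 on day 14 and 30.1 to 39.8 CPM around 33.3 on day 42 (log2 fold change 0.72 ± 0.14, adjusted p = 6.29e-05). *Elf5*, an ETS factor of distal epithelium, had a log2 fold change of 0.83 ± 0.15. *Foxa1* was still below CTRL on day 42 (log2 fold change -0.47 ± 0.15, adjusted p = 0.0155), and *Elf5* did not differ from it by the test (log2 fold change -0.17, adjusted p = 0.444). *Klf2*, a factor of quiescent endothelium, also rose, with a log2 fold change of 0.67. The factors that fell were mesenchymal or of the early lung. *Snai1*, a driver of mesenchymal programs, was at 31.3 to 61.4 CPM around a median of 39.3 on day 14 and 18.85 to 25.7 CPM around 23.2 on day 42 (log2 fold change -0.87 ± 0.15, adjusted p = 5.8e-06). *Tbx5*, a T-box factor of lung mesenchyme, had a log2 fold change of -0.43.

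**Figure D3:**
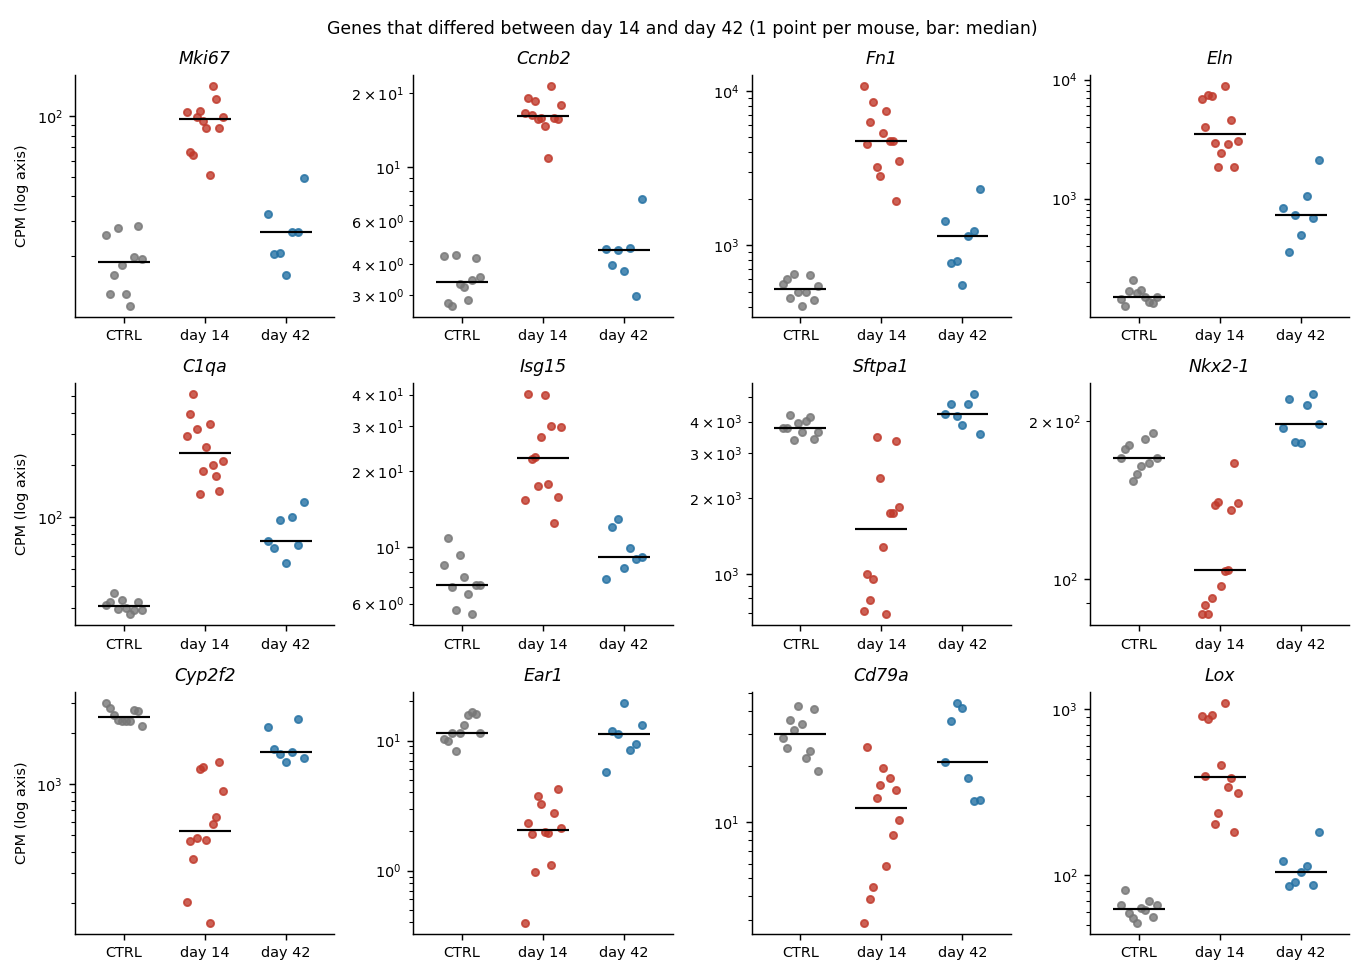
CPM (log axis) of 12 genes in each CTRL mouse (n = 10) and each BLEO-IPF mouse on day 14 (n = 12) and day 42 (n = 7); each point is a mouse and the bar is the group median. The D42 mice lie below all D14 mice for *Mki67*, *Ccnb2*, *C1qa* and *Lox* and above them for *Sftpa1*, *Nkx2-1* and *Ear1*, whereas *Cd79a* and *Eln* overlap between the days.

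Club cell genes had been low on day 14, with a median log2 fold change of -1.404 against CTRL. Of 12 club cell markers 8 rose and none fell (median 0.76). *Cyp2f2*, the cytochrome P450 of club cells, was at 153 to 1347 CPM around a median of 533 on day 14 and 1340 to 2413 CPM around 1550 on day 42 (log2 fold change 1.35 ± 0.28, adjusted p = 0.000143). *Cbr2*, a carbonyl reductase, was at 335 to 2145 CPM around a median of 718 on day 14 and 1449 to 2849 CPM around 2186 on day 42 (log2 fold change 1.27 ± 0.29, adjusted p = 0.000552). *Scgb1a1* was at 1947 to 14180 CPM around a median of 6364 on day 14 and 11370 to 18130 CPM around 13870 on day 42 (log2 fold change 0.96 ± 0.24, adjusted p = 0.00118). In all 3 every D14 mouse had lain below the CTRL range, and *Cbr2* was still lower than CTRL on day 42 (log2 fold change -0.89 ± 0.32, adjusted p = 0.034). On day 42, 5 of the 12 markers were below CTRL (median -0.63), beside the 11.0% of all genes. The level of the list was -0.97 to -0.31, below the CTRL range of -0.13 to 0.14 in all 7 mice. *Scgb3a2*, the secretoglobin next in abundance, was at 95.3 to 367 CPM around a median of 184 on day 14 and 186 to 550.2 CPM around 305 on day 42 (log2 fold change 0.56 ± 0.27, adjusted p = 0.098) and did not pass.

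Ciliated cell markers had a median log2 fold change of 0.41 from day 14 to day 42, and 1 of 16 passed the test, a count of 1 to 7 when 1 mouse was left out, the count moving by over 1.5 times without mice 2, 5, 6, 11 or 12 of day 14 or mice 2 or 7 of day 42. The gene called with all mice was *Tppp3*, a tubulin-binding protein, at 60.5 to 177 CPM around a median of 91.6 on day 14 and 165 to 301 CPM around 247.5 on day 42 (log2 fold change 1.34 ± 0.23, adjusted p = 6.88e-06). *Foxj1*, the master factor of motile cilia, was at 39.5 to 101 CPM around a median of 56.8 on day 14 and 49.4 to 81.9 CPM around 63.1 on day 42 (log2 fold change 0.04 ± 0.19, adjusted p = 0.902). *Dnah5*, an axonemal dynein, had a log2 fold change of 0.41. On day 42, 11 of the 16 ciliated markers were below CTRL, beside the 11.0% of all genes. Secretory and goblet cell genes were scattered over the mice, with 1 higher and 3 lower of 14. *Agr2*, a chaperone of mucin folding, fell (log2 fold change -2.38 ± 0.50, adjusted p = 0.000152). *Reg3g*, an antibacterial lectin, which reached 64.5 CPM in a D14 mouse, was at no more than 1.90 CPM on day 42 (log2 fold change -4.04 ± 1.15, adjusted p = 0.0044). The mucin genes *Muc5b* and *Muc5ac* had log2 fold changes of -0.38 and -0.54 and did not pass. Basal cell keratins were near 0 in most mice of day 14 and rose in part. *Krt5*, the defining keratin of airway stem cells, was at 0 to 2.29 CPM around a median of 0.141 on day 14 and 0.0858 to 15.7 CPM around 3.56 on day 42 (log2 fold change 3.67 ± 0.80, adjusted p = 0.00025). The D42 mice were spread widely in *Krt5*, and the lowest of them lay within the D14 range. *Krt14*, its partner keratin, had a log2 fold change of 2.27 ± 0.70.

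In the endothelium most capillary markers did not pass the test between the days. Of 14 general capillary markers 4 rose, a count of 2 to 7 when 1 mouse was left out, the count moving by over 1.5 times without mice 2, 3 or 5 of day 14 or mice 1, 2 or 4 of day 42. *Sema3c*, a semaphorin of these cells, was at 203.5 to 718 CPM around a median of 374.5 on day 14 and 515 to 812 CPM around 674 on day 42 (log2 fold change 0.73 ± 0.17, adjusted p = 0.000557). The defining markers *Gpihbp1*, the lipoprotein lipase anchor, and *Kit*, the stem cell factor receptor, had log2 fold changes of -0.11 and 0.30 and did not pass (*Kit* passed without mouse 5 of day 14, adjusted p = 0.047). Of 13 markers of aerocytes, the large capillary cells of gas exchange, 3 rose (5 without mouse 5 of day 14). *Emcn*, endomucin, had a log2 fold change of 0.69 ± 0.12. *Cyp4b1*, a cytochrome P450, was at 116 to 343 CPM around a median of 222 on day 14 and 225 to 556 CPM around 417 on day 42 (log2 fold change 0.90 ± 0.25, adjusted p = 0.00297). *Cyp4b1* stayed below CTRL (log2 fold change -0.82 ± 0.26, adjusted p = 0.0181), and so did *Ednrb*, the endothelin receptor that marks aerocytes. It was at 33.8 to 84.6 CPM around a median of 65.3 on day 14 and 41.8 to 129 CPM around 66 on day 42, and at -0.92 on the log2 scale against CTRL.

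Venous markers fell: 6 of 11 were lower on day 42 and none higher, and the levels of the list did not overlap, at 0.35 to 0.83 on day 14 and -0.04 to 0.34 on day 42. *Vcam1*, an adhesion molecule for leukocytes, was at 120.3 to 189 CPM around a median of 143 on day 14 and 78.4 to 127 CPM around 104 on day 42 (log2 fold change -0.49 ± 0.09, adjusted p = 1.31e-05). *Vwf*, von Willebrand factor, was at 751 to 1631 CPM around a median of 904 on day 14 and 618 to 868 CPM around 679 on day 42 (log2 fold change -0.53 ± 0.16, adjusted p = 0.00671). On day 42 all 7 mice were within the CTRL range in *Vwf* and 5 of 7 in *Vcam1*, the other 2 lying below it. *Ackr1*, the chemokine-scavenging receptor of venules, was at 1.64 to 14.1 CPM around a median of 5.496 on day 14 and 0.515 to 4.445 CPM around 1.29 on day 42 (log2 fold change -1.81 ± 0.51, adjusted p = 0.00446). It was at 0.395 CPM or less in CTRL mice. Of 11 arterial markers 4 rose (2 without mouse 4 of day 42). *Sox17*, the arterial identity factor, was one of them, at 43.3 to 88.95 CPM around a median of 74.7 on day 14 and 81.9 to 129 CPM around 103.5 on day 42 (log2 fold change 0.57 ± 0.11, adjusted p = 5.32e-05). It was also above CTRL (log2 fold change 0.50 ± 0.12, adjusted p = 0.000852). The gap junction genes *Gja5* and *Gja4* did not pass, with log2 fold changes of -0.10 and -0.03. Lymphatic markers held 3 genes that fell of 8 (1 without mouse 8 of day 14). *Stab1*, a scavenger receptor shared with macrophages, was at 168.5 to 349.6 CPM around a median of 223 on day 14 and 113 to 142.5 CPM around 135.5 on day 42 (log2 fold change -0.85 ± 0.13, adjusted p = 1.33e-06), below all D14 mice. The lymphatic master factor *Prox1* was at 5.37 to 15.6 CPM around a median of 11.6 on day 14 and 5.23 to 16.4 CPM around 7.803 on day 42 (log2 fold change -0.20 ± 0.23, adjusted p = 0.511) and remained above CTRL (log2 fold change 1.34 ± 0.25, adjusted p = 3.01e-05).

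Fibroblast genes divided by subset. Of 17 markers of fibrotic fibroblasts 14 fell and none rose (median -1.696), with levels of 1.34 to 3.38 on day 14 and 0.10 to 2.05 on day 42. Mouse 7 of day 42 stood at 2.05, inside the D14 range, and the other 6 at 0.10 to 0.86, below it. *Cthrc1*, which defines these cells, was at 11.2 to 46.6 CPM around a median of 24.3 on day 14 and 4.17 to 18.5 CPM around 5.95 on day 42 (log2 fold change -1.696 ± 0.47, adjusted p = 0.00383). *Postn*, periostin, fell by far less, from 500.5 to 743.3 CPM on day 14 to 446 to 689.6 CPM on day 42 (log2 fold change -0.24, adjusted p = 0.0217). Its call was lost without mouse 4 of day 14 or mouse 3 of day 42, and with day 14 and day 42 mice alone in the fit. *Sfrp1*, a secreted Wnt antagonist of early activated fibroblasts, was at 127 to 439 CPM around a median of 258 on day 14 and 30.2 to 79.7 CPM around 48.5 on day 42 (log2 fold change -2.28 ± 0.34, adjusted p = 5.01e-07). *Fn1*, fibronectin, was at 1944 to 10830 CPM around a median of 4725 on day 14 and 549 to 2314 CPM around 1153 on day 42 (log2 fold change -2.18 ± 0.39, adjusted p = 1.4e-05). *Sfrp1* did not overlap between the days, whereas *Cthrc1* and *Fn1* did. *Sparc*, a collagen-binding glycoprotein, was at 3615 to 5702 CPM around a median of 4467 on day 14 and 2521 to 3241 CPM around 2749 on day 42 (log2 fold change -0.72 ± 0.11, adjusted p = 9.19e-07), with no overlap. It remained above CTRL (log2 fold change 0.66 ± 0.11, adjusted p = 8.3e-06). *Tnc*, tenascin C, had a log2 fold change of -1.94 from day 14 and was at 2.16 against CTRL. *Fst*, the activin antagonist follistatin, had a log2 fold change of -3.15 from day 14 and of 0.56 against CTRL, which did not pass.

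Alveolar fibroblast markers, which are lowered in injured lung, rose in 5 of 15 and fell in 2 (4 without mouse 4 of day 42). On day 42, 9 were still below CTRL, beside the 11.0% of all genes. *Inmt*, a methyltransferase typical of these cells, was at 186 to 738 CPM around a median of 441 on day 14 and 564 to 1534 CPM around 862 on day 42 (log2 fold change 1.100 ± 0.29, adjusted p = 0.00248). This was still short of the CTRL range of 1552 to 2425 CPM. *Scn7a*, a sodium channel, had a log2 fold change of 0.72 ± 0.18. The defining genes *Npnt*, nephronectin, and *Tcf21*, a mesenchymal transcription factor, had log2 fold changes of 0.19 and 0.37 and did not pass. The 2 that fell were *Mfap4*, an elastic fiber protein, at 309 to 1120 CPM around a median of 924 on day 14 and 302.5 to 454 CPM around 353 on day 42 (log2 fold change -1.18 ± 0.18, adjusted p = 7.95e-07), and *Pdgfra*, the platelet-derived growth factor receptor. The latter had a log2 fold change of -0.72 ± 0.14. Among adventitial markers 5 of 13 fell. *Igfbp4*, an insulin-like growth factor binding protein, had the smallest adjusted p, at 367 to 859.7 CPM around a median of 504 on day 14 and 223 to 337 CPM around 250 on day 42 (log2 fold change -1.04 ± 0.19, adjusted p = 2.7e-05).

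Contractile genes were mixed, with 5 of 13 lower and 2 higher. *Acta2*, smooth muscle actin, was at 229 to 599 CPM around a median of 297 on day 14 and 198 to 280 CPM around 225 on day 42 (log2 fold change -0.65 ± 0.18, adjusted p = 0.00285). *Tagln*, transgelin, was at 225 to 644.5 CPM around a median of 312 on day 14 and 165 to 254 CPM around 192 on day 42 (log2 fold change -0.82 ± 0.16, adjusted p = 7.16e-05). Against CTRL on day 42 they stood at log2 fold changes of 0.01 and -0.04, and neither passed. *Myh11*, the myosin of mature smooth muscle, was at 106 to 240.4 CPM around a median of 159 on day 14 and 138 to 183 CPM around 154 on day 42 (log2 fold change -0.04 ± 0.12, adjusted p = 0.835). It stood below CTRL on day 42 (log2 fold change -0.68 ± 0.13, adjusted p = 3.72e-05). Pericyte markers were called in both directions, 2 higher and 2 lower of 10, near the 15.2% and 18.8% of all genes. The number higher was 0 to 3 when 1 mouse was left out. *Pdgfrb* and *Cspg4*, the 2 that fell, had log2 fold changes of -0.41 and -0.71. In the mesothelium *Msln*, mesothelin, fell (log2 fold change -1.04 ± 0.28, adjusted p = 0.00306), alone among 10 markers.

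Genes that crosslink, cleave or organize matrix mostly fell. Of 21 crosslinking enzymes and proteases 16 fell and 1 rose (median -0.70), with 16 lower in every fit that left out a mouse. *Lox*, lysyl oxidase, was at 182 to 1091 CPM around a median of 390 on day 14 and 86.4 to 181 CPM around 104 on day 42 (log2 fold change -2.22 ± 0.37, adjusted p = 4.54e-06). *Adamts2*, a procollagen protease, was at 204 to 417 CPM around a median of 265 on day 14 and 92.7 to 175 CPM around 148 on day 42 (log2 fold change -1.06 ± 0.17, adjusted p = 1.1e-06). *Adamts12*, a related protease, had a log2 fold change of -2.84 ± 0.48. The first 2 did not overlap between the days, and *Adamts2* remained above CTRL (log2 fold change 0.86 ± 0.17, adjusted p = 6.68e-05). *Fap*, a surface protease of activated fibroblasts, had a log2 fold change of -1.62 and was at 0.01 against CTRL. *P4ha3*, a prolyl hydroxylase, and *Mmp13*, a collagenase, fell with log2 fold changes of -1.89 and -2.01. The gene of this list that rose was *Mmp11*, stromelysin-3, at 24.55 to 50.7 CPM around a median of 43.4 on day 14 and 43.75 to 77.4 CPM around 53.7 on day 42 (log2 fold change 0.47 ± 0.12, adjusted p = 0.00104).

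Elastic fiber, proteoglycan and basement membrane genes fell in 13 of 20 and rose in 2 (median -0.77). *Eln*, elastin, was at 1840 to 8910 CPM around a median of 3504 on day 14 and 355 to 2092 CPM around 734 on day 42 (log2 fold change -2.33 ± 0.42, adjusted p = 1.64e-05). All D42 mice still exceeded the highest CTRL mouse at 207 CPM (log2 fold change 2.54 ± 0.40, adjusted p = 1.53e-06). *Fbn1*, fibrillin-1, was at 424.5 to 1687 CPM around a median of 768 on day 14 and 206 to 385 CPM around 262 on day 42 (log2 fold change -1.68 ± 0.27, adjusted p = 1.4e-06). *Emilin1*, an elastic fiber glycoprotein, had a log2 fold change of -0.88 ± 0.14. *Fbn1* and *Emilin1* did not overlap between the days, whereas the highest D42 mouse in *Eln* lay above the lowest D14 mouse. *Cemip*, a hyaluronan-degrading protein, had the largest fall of the list, from a median of 48.3 to 4.50 CPM, a log2 fold change of -3.13, and remained at 3.401 against CTRL. *Fbn2*, the fibrillin of development, and *Fbln2*, fibulin-2, fell with log2 fold changes of -2.92 and -1.95, to 0.04 and 0.34 against CTRL. *Bgn*, biglycan, was at 1688 to 3129 CPM around a median of 2113 on day 14 and 1086 to 1417 CPM around 1163 on day 42 (log2 fold change -0.82 ± 0.13, adjusted p = 2.8e-06), with no overlap. *Prelp*, a basement membrane anchor protein, went the other way, at 192 to 488 CPM around a median of 351 on day 14 and 453 to 549 CPM around 472 on day 42 (log2 fold change 0.50 ± 0.10, adjusted p = 6.02e-05).

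Macrophage genes split by subset too. Of 16 markers of interstitial macrophages 14 fell and none rose (median -1.42). *C1qa*, a chain of complement C1q, was at 135 to 512 CPM around a median of 233 on day 14 and 54.1 to 121.5 CPM around 72.7 on day 42 (log2 fold change -1.67 ± 0.27, adjusted p = 1.91e-06). *C1qb*, its partner chain, had a log2 fold change of -1.72 ± 0.28. Both fell without overlap and both were still above CTRL, by 1.41 and 1.604 on the log2 scale. *Cd163*, the hemoglobin scavenger receptor, was at 11.4 to 122 CPM around a median of 22.03 on day 14 and 5.43 to 13.2 CPM around 8.14 on day 42 (log2 fold change -2.39 ± 0.34, adjusted p = 1.26e-07). *F13a1*, coagulation factor XIII A, was at 33.6 to 231 CPM around a median of 52.3 on day 14 and 19.03 to 29.4 CPM around 25.9 on day 42 (log2 fold change -1.94 ± 0.30, adjusted p = 6.25e-07). These 2 ended at log2 fold changes of -0.84 and -0.27 against CTRL, neither passing. *Folr2*, a folate receptor, and *Ccl8*, a chemokine, fell with log2 fold changes of -1.93 and -2.23, and *Mrc1*, the mannose receptor, with -0.82.

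Most lipid-associated macrophage genes were still above CTRL on day 42. Of these markers 9 of 17 fell and 2 rose from day 14 to day 42, while 15 of the 17 were higher than CTRL on day 42, beside the 13.7% of all genes. *Spp1*, osteopontin, was at 826 to 7806 CPM around a median of 2669 on day 14 and 188 to 2660 CPM around 1008 on day 42 (log2 fold change -1.55 ± 0.51, adjusted p = 0.0146), against 26.99 to 122 CPM in CTRL mice. *Gpnmb*, a lysosomal glycoprotein, was at 135 to 468.5 CPM around a median of 207 on day 14 and 28.99 to 324 CPM around 154 on day 42 (log2 fold change -0.56 ± 0.34, adjusted p = 0.198). The days overlapped widely in both, and the log2 fold changes against CTRL on day 42 were 4.07 and 3.303. *Trem2*, a lipid receptor, and *Mmp12*, macrophage elastase, fell with log2 fold changes of -0.97 and -1.19 and stood at 3.31 and 3.898 against CTRL. *Apoe*, apolipoprotein E, was at 1220 to 6463 CPM around a median of 2065 on day 14 and 730.1 to 1616 CPM around 953 on day 42 (log2 fold change -1.34 ± 0.25, adjusted p = 3.49e-05). *Mmp14*, a membrane metalloproteinase shared with fibroblasts, had a log2 fold change of -1.33. *Arg1*, arginase 1, fell from a median of 19.5 to 4.24 CPM, a log2 fold change of -2.83. The 2 that rose were *Cd9*, a tetraspanin (0.35), and *Cd36*, the fatty acid receptor (0.38), both abundant in CTRL lung as well.

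Resident alveolar macrophage genes rose in 8 of 16 (4 without mouse 7 of day 42) and none fell. After *Ear1*, the largest rise was in *Fabp1*, a fatty acid binding protein, at 0 to 1.299 CPM around a median of 0.0463 on day 14 and 0.2895 to 3.52 CPM around 0.75 on day 42 (log2 fold change 2.298 ± 0.58, adjusted p = 0.00137). *Plet1*, a surface protein of these cells, was at 29.4 to 75.2 CPM around a median of 46.1 on day 14 and 40.6 to 104 CPM around 68.5 on day 42 (log2 fold change 0.66 ± 0.17, adjusted p = 0.00174). It was above CTRL (log2 fold change 0.85 ± 0.18, adjusted p = 0.000238). *Marco*, a scavenger receptor, was at 6.06 to 63.8 CPM around a median of 18.5 on day 14 and 3.603 to 39.95 CPM around 10.01 on day 42 (log2 fold change -0.87 ± 0.48, adjusted p = 0.159) and did not pass. Without mouse 7 of day 42 its log2 fold change was -1.44 (adjusted p = 0.0257). The rinsing of the airspaces before dissection bears on these values and its part was not tested. Of 14 monocyte genes 4 rose and 3 fell (median 0.12). The number that rose was 2 to 4 when 1 mouse was left out, the count moving by over 1.5 times without mice 1, 3 or 8 of day 14 or mice 2, 3 or 4 of day 42. Among those that rose, named after their values were seen, were *Cd300e* (0.86 as a log2 fold change), *Treml4* (0.77) and *Gngt2* (0.31), the last of which overlaps another tested gene. *Vcan*, versican, fell without overlap (log2 fold change -1.88 ± 0.28, adjusted p = 5.39e-07) and *F10*, coagulation factor X, fell (log2 fold change -0.99 ± 0.23, adjusted p = 0.000525). The defining *Ly6c2* and *Ccr2* had log2 fold changes of 0.17 and -0.41 and did not pass (*Ccr2* passed without mouse 1, 8 or 11 of day 14 or mouse 7 of day 42, adjusted p of 0.0121 to 0.0488).

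Lysosomal and phagocytic genes fell in 9 of 19 (median -0.27) and rose in none. On day 42, 17 of 19 stayed above CTRL, beside the 13.7% of all genes. *Lgmn*, legumain, was at 296 to 891 CPM around a median of 442 on day 14 and 199 to 330.3 CPM around 246.5 on day 42 (log2 fold change -1.05 ± 0.18, adjusted p = 8.43e-06). *Ctsh*, cathepsin H, fell with a log2 fold change of -0.77 and was at 0.80 against CTRL. Complement genes fell in 9 of 15, and 1 rose, *C6*, a component of the membrane attack complex (log2 fold change 0.36 ± 0.14, adjusted p = 0.0406). The number that rose was 0 to 1 when 1 mouse was left out, the count moving by over 1.5 times without mice 1, 3, 4 or 8 of day 14 or mice 1, 2, 5, 6 or 7 of day 42, and *C6* did not pass with the replicate block or with day 14 and day 42 mice alone in the fit. *C3ar1*, the receptor of the C3a fragment, was at 21.7 to 96.3 CPM around a median of 47.2 on day 14 and 7.38 to 28.3 CPM around 19.9 on day 42 (log2 fold change -1.45 ± 0.30, adjusted p = 0.000105). *C4b* had a log2 fold change of -0.66 ± 0.12, and *C3*, the central component, fell from a median of 1198 to 704 CPM without overlap, a log2 fold change of -0.66.

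Neutrophil markers fell in 5 of 12, and in 3 without mouse 8 of day 14, whose level of 3.20 stood above the rest of its group; without it the median of the list was 0.05 instead of -0.38. The defining *S100a8* and *S100a9*, the subunits of calprotectin, had log2 fold changes of -0.34 and -0.42 and did not pass. *Mmp8*, neutrophil collagenase, was at 6.56 to 54.6 CPM around a median of 17.9 on day 14 and 3.17 to 7.24 CPM around 4.64 on day 42 (log2 fold change -2.096 ± 0.34, adjusted p = 2.68e-06). *Il1r2*, the decoy receptor of interleukin-1, was at 1.48 to 38.5 CPM around a median of 3.46 on day 14 and 0.281 to 2.03 CPM around 1.39 on day 42 (log2 fold change -2.35 ± 0.47, adjusted p = 8.34e-05). Dendritic cell genes were called in both directions, 2 higher and 4 lower of 14, beside the 15.2% and 18.8% of all genes. *Fscn1*, fascin of mature dendritic cells, was at 53.9 to 119.8 CPM around a median of 73.4 on day 14 and 28.9 to 55.01 CPM around 32.6 on day 42 (log2 fold change -1.06 ± 0.21, adjusted p = 6.33e-05). It was above CTRL (log2 fold change 1.03 ± 0.21, adjusted p = 0.000197). *Clec10a*, a lectin, had a log2 fold change of -1.23 ± 0.24. The 2 that rose were *Clec9a* (log2 fold change 0.72, adjusted p = 0.0155), which overlaps other tested genes, and *Cd209a* (0.72, adjusted p = 0.0421). Neither passed with day 14 and day 42 mice alone in the fit. The call of *Cd209a* was also lost without any one of mice 1, 3, 4 or 8 of day 14 or mice 1, 2, 3, 4, 6 or 7 of day 42. *Xcr1*, the receptor of cross-presenting cells, had a log2 fold change of 0.51 from day 14, which did not pass, and of 1.11 against CTRL, which did.

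Among lymphocytes, B cell genes rose. Of 14 B cell markers 11 rose and none fell (median 1.03), 8 to 12 when 1 mouse was left out. *Cd79b*, a chain of the B cell receptor complex, had a log2 fold change of 1.09 ± 0.28. *Cd79a*, the other chain, was at 2.88 to 25.3 CPM around a median of 11.96 on day 14 and 13 to 44.15 CPM around 21.2 on day 42 (log2 fold change 1.16 ± 0.31, adjusted p = 0.0023). The groups overlapped in both, and neither passed the test against CTRL on day 42, with log2 fold changes of -0.23 and -0.19. *Ms4a1*, which encodes CD20, and *Pax5*, the B lineage factor, each had a log2 fold change of 1.09. Among T cell genes 1 of 17 rose and 2 fell. *Cd2*, an adhesion receptor, rose (log2 fold change 0.80 ± 0.20, adjusted p = 0.00145), *Ctla4*, the inhibitory receptor, fell (log2 fold change -1.700 ± 0.44, adjusted p = 0.00196). The CD3 chains *Cd3e* and *Cd3d* had log2 fold changes of 0.26 and 0.13. Of 13 NK and cytotoxic lymphocyte genes 2 rose, near the 15.2% of all genes, and none fell (median 0.35). They were *Nkg7*, a granule protein (log2 fold change 0.70 ± 0.25, adjusted p = 0.0221), whose call was lost without mouse 3 of day 42, and *Klra8*, an activating NK receptor (log2 fold change 0.90 ± 0.33, adjusted p = 0.0268), whose call was lost without mouse 8 of day 14 or mouse 2, 3 or 4 of day 42. Neither passed with day 14 and day 42 mice alone in the fit. The defining markers *Ncr1* and *Klrb1c* did not pass between the days and were lower than CTRL on day 42, with log2 fold changes of -1.21 and -0.91.

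Plasma cell genes were uneven. Of 14, 7 were above CTRL and 3 below it on day 14, beside 32.4% and 29.9% of all genes. On day 42, 7 were above and 1 below, beside 13.7% and 11.0% of all genes. Between the days 1 rose and 1 fell. The level of the list was -0.74 to 0.80 on day 14, where 7 of 12 mice lay within the CTRL range of -0.43 to 0.23, and -0.16 to 2.16 on day 42, where 2 of 7 did. *Jchain*, the joining chain of secreted IgA and IgM, was at 14.1 to 234 CPM around a median of 43.9 on day 14 and 33.45 to 306 CPM around 79.2 on day 42 (log2 fold change 1.099 ± 0.54, adjusted p = 0.108), against 7.05 to 27.2 CPM in CTRL mice. *Igha*, the heavy chain of IgA, was at 57.1 to 1318 CPM around a median of 149 on day 14 and 139.9 to 1011 CPM around 341 on day 42 (log2 fold change 0.67 ± 0.58, adjusted p = 0.387). Neither passed between the days, though *Jchain* did without mouse 2 of day 14 (adjusted p = 0.0204), and both were above CTRL on day 42, by log2 fold changes of 3.27 and 2.95. *Ighm* was at 1333 CPM in mouse 3 of day 42 and no higher than 357 CPM in D14 mice. Of 11 follicle and germinal center genes 4 fell and none rose. *Cxcl13*, which attracts B cells, was at 5.43 to 106 CPM around a median of 19.7 on day 14 and 6.09 to 9.865 CPM around 7.44 on day 42 (log2 fold change -1.99 ± 0.46, adjusted p = 0.000531). Mice 1, 2, 3, 4, 7 and 8 of day 14 were at 25.34 CPM or more. The other D14 mice, at 5.426 to 13.98 CPM, lay in or near the D42 range. *Ccl19*, which attracts T cells, was at 0.3975 to 1.15 CPM around a median of 0.827 on day 14 and 0.193 to 0.593 CPM around 0.515 on day 42 (log2 fold change -0.97 ± 0.32, adjusted p = 0.0131).

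Antigen presentation, interferon and cytokine genes differed in how they moved. Of 12 MHC class II genes 1 rose and 1 fell. *H2-Aa*, a chain of the class II molecule, was at 178 to 1029 CPM around a median of 623.5 on day 14 and 591 to 821 CPM around 741 on day 42 (log2 fold change 0.26 ± 0.17, adjusted p = 0.219). *Cd74*, the invariant chain, had a log2 fold change of 0.30. Both were above CTRL on day 42, by 0.69 and 0.77. The member that fell was *Ctss*, cathepsin S (log2 fold change -0.94 ± 0.23, adjusted p = 0.00084), and the one that rose was *H2-Ob*, a class II chain of B cells (log2 fold change 1.002 ± 0.28, adjusted p = 0.00364). Interferon-stimulated genes fell in 14 of 18 (median -0.56; 10 to 14 when 1 mouse was left out) and rose in none. *Isg15*, a ubiquitin-like modifier, was at 12.5 to 40.2 CPM around a median of 22.55 on day 14 and 7.51 to 12.9 CPM around 9.17 on day 42 (log2 fold change -1.300 ± 0.22, adjusted p = 4.91e-06). *Irf7*, the interferon regulatory factor that amplifies the response, was at 25.3 to 87.7 CPM around a median of 44.4 on day 14 and 20.8 to 28.2 CPM around 26.25 on day 42 (log2 fold change -1.004 ± 0.18, adjusted p = 1.87e-05). Their ranges overlapped only at the ends, and neither passed the test against CTRL on day 42. *Cxcl10*, an interferon-induced chemokine, had a log2 fold change of -1.86 and was still above CTRL (log2 fold change 1.64 ± 0.44, adjusted p = 0.00441).

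Inflammatory cytokines and chemokines fell in 8 of 18 and rose in 1. On day 42, 15 of 18 were higher than CTRL, beside the 13.7% of all genes. *Lif*, a cytokine of the interleukin-6 family, was at 22 to 53.3 CPM around a median of 30.2 on day 14 and 10.1 to 20.6 CPM around 14.67 on day 42 (log2 fold change -1.15 ± 0.22, adjusted p = 2.92e-05), with no overlap. It stood at 1.71 on the log2 scale against CTRL. *Cxcl14*, a chemokine of epithelium and fibroblasts, had a log2 fold change of -0.88 ± 0.16. *Ccl2*, the attractant of monocytes, and *Tnf*, tumor necrosis factor, fell with log2 fold changes of -1.87 and -1.01. *Il1a*, interleukin-1α, was the member that rose, at 2.295 to 6.66 CPM around a median of 4.71 on day 14 and 5.53 to 7.68 CPM around 6.41 on day 42 (log2 fold change 0.55 ± 0.17, adjusted p = 0.00943). *Ccl3*, a macrophage chemokine, was at a log2 fold change of -0.05 with 1.15 against CTRL. Of 11 genes of alternative activation and type 2 responses 4 fell and 2 rose. *Retnla*, a resistin-like protein induced by type 2 cytokines, was at 128 to 679.5 CPM around a median of 438 on day 14 and 33.7 to 143 CPM around 84.4 on day 42 (log2 fold change -2.21 ± 0.43, adjusted p = 5.15e-05). *Il4ra*, the receptor chain for interleukins 4 and 13, fell with a log2 fold change of -0.88 ± 0.16, without overlap. The genes that rose were *Chil1*, a chitinase-like protein (log2 fold change 0.94 ± 0.31, adjusted p = 0.0131), which did not pass with day 14 and day 42 mice alone in the fit, and *Il5ra*, the receptor chain for interleukin-5 (log2 fold change 1.27 ± 0.45, adjusted p = 0.023), whose call was lost without mouse 2 or 4 of day 42.

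Xenobiotic genes, much of whose expression in lung lies in club cells and endothelium, rose in 10 of 15 and fell in 1 (median 0.68). *Cyp4v3*, a fatty acid hydroxylase, was at 31.1 to 54.9 CPM around a median of 45.1 on day 14 and 57.4 to 82.6 CPM around 73.2 on day 42 (log2 fold change 0.71 ± 0.11, adjusted p = 9.19e-07). *Fmo5*, a flavin monooxygenase, rose with a log2 fold change of 0.80 ± 0.16. Both rose without overlap. The member that fell was *Cyp7b1*, an oxysterol hydroxylase (log2 fold change -0.94 ± 0.24, adjusted p = 0.0013). NRF2 targets moved both ways, 5 up and 5 down of 17. *Srxn1*, sulfiredoxin, was at 49.8 to 104.7 CPM around a median of 57.7 on day 14 and 36.2 to 45.04 CPM around 41.98 on day 42 (log2 fold change -0.65 ± 0.11, adjusted p = 3.43e-06), all D42 mice below the D14 mice. *Slc7a11*, the cystine importer, had a log2 fold change of -0.999. *Cat*, catalase, was at 81.6 to 251 CPM around a median of 169 on day 14 and 244 to 338 CPM around 281 on day 42 (log2 fold change 0.84 ± 0.16, adjusted p = 3.33e-05). *Gstm1* rose by 0.90 on the log2 scale.

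Glycolysis and hypoxia genes fell in 7 of 18, and 1 rose, *Vegfa*, the endothelial growth factor (log2 fold change 0.36 ± 0.13, adjusted p = 0.023; call lost without mouse 4 of day 42). *Pkm*, pyruvate kinase, had a log2 fold change of -0.57 ± 0.13. *Gapdh*, often used as a reference gene, was at 157 to 262.5 CPM around a median of 184.5 on day 14 and 108 to 165 CPM around 132 on day 42 (log2 fold change -0.53 ± 0.12, adjusted p = 0.000549). It was above CTRL on both days. *Adm*, adrenomedullin, and *Slc2a1*, the glucose transporter GLUT1, fell with log2 fold changes of -1.31 and -0.76. Fatty acid genes rose in 6 of 16. *Elovl1*, an elongase, was at 185 to 610.1 CPM around a median of 340.1 on day 14 and 475 to 649 CPM around 580.3 on day 42 (log2 fold change 0.69 ± 0.17, adjusted p = 0.001), and *Acly*, ATP citrate lyase, had a log2 fold change of 0.32. *Elovl6*, another elongase, fell (log2 fold change -0.66 ± 0.20, adjusted p = 0.00702). Cholesterol synthesis (2 of 18 called), nuclear respiratory chain (1 up and 3 down of 18) and ER chaperone genes (1 up and 6 down of 19) were called in part, beside the 15.2% and 18.8% of all genes. Of the ER chaperone genes 13 had been above CTRL on day 14, beside the 32.4% of all genes. *Sdf2l1*, an ER chaperone, fell (log2 fold change -0.55 ± 0.14, adjusted p = 0.00175) and *Insig1*, the sterol sensor, rose (log2 fold change 0.46 ± 0.14, adjusted p = 0.00704). Of 12 heme and iron genes 3 fell and 2 rose, beside the 18.8% and 15.2% of all genes. *Slc39a14*, an iron and zinc importer, had a log2 fold change of -1.73 ± 0.33, and *Slc11a1*, the phagosomal metal transporter, fell as well (log2 fold change -0.66 ± 0.17, adjusted p = 0.00162). Those that rose were *Tfrc*, the transferrin receptor, with a log2 fold change of 0.41 ± 0.13 (not past the test with day 14 and day 42 mice alone in the fit), and *Slc48a1*, a heme transporter, with 0.15 ± 0.05. Of the 7 mitochondrial genes tested *mt-Nd2* and *mt-Nd4*, subunits of complex I, rose with log2 fold changes of 0.55 and 0.41.

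Among ligands and their antagonists, Wnt pathway genes fell in 8 of 21 and rose in 2. *Wnt5a*, a ligand of the non-canonical branch, was at 42.3 to 62.1 CPM around a median of 52.1 on day 14 and 21.96 to 38.99 CPM around 29.9 on day 42 (log2 fold change -0.81 ± 0.11, adjusted p = 1.06e-07), with no overlap. *Frzb*, a secreted Wnt antagonist, had a log2 fold change of -2.02 and remained at 3.01 against CTRL, whereas *Wif1*, another inhibitor, rose (log2 fold change 0.68 ± 0.21, adjusted p = 0.0102). Growth factor and BMP ligands were called in equal numbers, 6 up and 6 down of 21. *Fgf2*, basic fibroblast growth factor, was at 67.9 to 171 CPM around a median of 95.95 on day 14 and 36.96 to 66.1 CPM around 46.9 on day 42 (log2 fold change -1.18 ± 0.17, adjusted p = 1.76e-07). *Nrg1*, neuregulin 1, had a log2 fold change of -1.11 ± 0.17. Both fell without overlap, and *Igf1* and *Pdgfc* fell with log2 fold changes of -1.01 and -1.55. *Bmp6*, a BMP of endothelium, was at 50.3 to 149 CPM around a median of 74.99 on day 14 and 89.8 to 287 CPM around 163 on day 42 (log2 fold change 1.05 ± 0.24, adjusted p = 0.000591). *Fgf1*, acidic fibroblast growth factor, rose by 0.69 on the log2 scale.

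Coagulation genes fell in 7 of 16 and rose in 1. *F2r*, the thrombin receptor PAR1, was at 402 to 791 CPM around a median of 494 on day 14 and 323 to 385 CPM around 361 on day 42 (log2 fold change -0.59 ± 0.10, adjusted p = 2.35e-06), with no overlap. *Serpine2*, a thrombin inhibitor, had a log2 fold change of -1.31 ± 0.27. *Thbd*, thrombomodulin of healthy endothelium, was the member that rose, at 342 to 949 CPM around a median of 682 on day 14 and 811 to 1113 CPM around 931 on day 42 (log2 fold change 0.49 ± 0.15, adjusted p = 0.00733). Among prostaglandin and nitric oxide genes 5 of 16 fell and 2 rose. Among those that fell were the prostaglandin E2 receptors *Ptger4*, at 12.8 to 37.9 CPM around a median of 27.4 on day 14 and 8.58 to 16.3 CPM around 11.2 on day 42 (log2 fold change -1.15 ± 0.20, adjusted p = 6.41e-06), and *Ptger2*. The latter had a log2 fold change of -0.70 ± 0.14, and *Ptger3* had a log2 fold change of -1.02. The receptors that rose were *Ptgfr*, for prostaglandin F (log2 fold change 1.01 ± 0.35, adjusted p = 0.0221), whose call was lost without mouse 4 of day 42, and *Ptgir*, for prostacyclin (log2 fold change 0.29 ± 0.11, adjusted p = 0.031), whose call was lost without any one of mice 1 or 3 of day 14 or mice 1, 2, 3, 6 or 7 of day 42, and with day 14 and day 42 mice alone in the fit. Of the immediate early genes 5 of 16 fell (8 without mouse 9 of day 14 or without mouse 2 of day 42), and 1 rose, *Jun* (log2 fold change 0.29 ± 0.10, adjusted p = 0.0244; call lost without mouse 2, 3 or 4 of day 42). *Myc* was at 10.2 to 66.8 CPM around a median of 18.7 on day 14 and 9.01 to 13.5 CPM around 10.3 on day 42 (log2 fold change -1.39 ± 0.29, adjusted p = 0.000146), and *Junb* had a log2 fold change of -0.73.

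Clock genes were called in both directions, 3 up and 3 down of 18, near the 15.2% and 18.8% of all genes. On day 42, 11 were below CTRL, beside the 11.0% of all genes. The number up between the days was 1 to 5 when 1 mouse was left out, the count moving by over 1.5 times without mice 1, 3, 6 or 11 of day 14 or mice 5 or 6 of day 42. It was 7 with the replicate block and 2 with day 14 and day 42 mice alone in the fit. *Nr1d1*, the repressor REV-ERBα, was at 38.6 to 180.3 CPM around a median of 110 on day 14 and 167 to 236 CPM around 210.1 on day 42 (log2 fold change 0.89 ± 0.26, adjusted p = 0.0063). *Cry1*, a repressor of the clock, was at 15.05 to 45.4 CPM around a median of 26.8 on day 14 and 11.6 to 21.1 CPM around 16.3 on day 42 (log2 fold change -0.74 ± 0.18, adjusted p = 0.0013). It was also lower than CTRL (log2 fold change -1.09 ± 0.19, adjusted p = 1.55e-05). *Arntl*, which encodes BMAL1, was at 4.02 to 40.9 CPM around a median of 8.34 on day 14 and 4.76 to 15.4 CPM around 11.7 on day 42 (log2 fold change -0.08 ± 0.29, adjusted p = 0.851), with a log2 fold change of 1.52 against CTRL. The time of day at which the lungs were taken was not given in the sources used here and cannot be told apart from the day. Of 9 neuronal and Schwann cell genes 5 fell. *S100b*, a calcium-binding protein of glia, was at 3.21 to 8.18 CPM around a median of 4.685 on day 14 and 1.37 to 3.185 CPM around 2.16 on day 42 (log2 fold change -1.15 ± 0.23, adjusted p = 5.66e-05), with no overlap. *Chl1*, a cell adhesion molecule, was at 9.35 to 169.7 CPM around a median of 50.9 on day 14 and 0.515 to 13.8 CPM around 4.24 on day 42 (log2 fold change -3.43 ± 0.69, adjusted p = 8.17e-05). The myelin genes of the list did not pass.

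On day 42, 223 of the 16221 genes tested were called above day 14 and CTRL alike, and 174 were called below both. The 4 largest differences each way among them are given here. Below day 14 and CTRL alike, *Prkg2*, a cGMP-dependent kinase, was at 18.4 to 68.5 CPM around a median of 28.75 on day 14 and 7.5 to 23.8 CPM around 12.8 on day 42 (log2 fold change -1.28 ± 0.24, adjusted p = 2.35e-05). This compares with 31.5 to 39.04 CPM in CTRL mice (log2 fold change -1.29 ± 0.24, adjusted p = 4.47e-05). *Mthfd1l*, a mitochondrial folate enzyme, was at 8.635 to 26.6 CPM around a median of 19.95 on day 14 and 7.61 to 11.01 CPM around 9.52 on day 42 (log2 fold change -1.14 ± 0.19, adjusted p = 2.73e-06). In CTRL mice it was at 15.1 to 26.8 CPM (log2 fold change -1.14 ± 0.19, adjusted p = 6.71e-06). Their D42 mice lay below every CTRL mouse. *Hif3a*, a hypoxia-inducible factor that restrains its relatives, had a log2 fold change of -1.49 ± 0.37, and *Wfdc8*, a small protease inhibitor, had a log2 fold change of -1.34. Above day 14 and CTRL alike, *Ly6i*, a small surface protein of the Ly6 family, was at 0.298 to 3.94 CPM around a median of 1.97 on day 14 and 1.97 to 11.6 CPM around 7.14 on day 42 (log2 fold change 1.68 ± 0.29, adjusted p = 8.74e-06). CTRL mice lay at 1.24 to 3.98 CPM (log2 fold change 1.93 ± 0.31, adjusted p = 2.97e-06).

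Of the 4 picked above both, the other 3 lost their call or turned when 1 mouse was left out. *Ltf*, lactotransferrin of neutrophil granules and airway glands, was at 8.48 to 86.96 CPM around a median of 30.6 on day 14 and 8.58 to 463 CPM around 39.3 on day 42 (log2 fold change 1.88 ± 0.49, adjusted p = 0.00186). Without mouse 1 of day 42, which held the highest value, the log2 fold change was 1.11 and the adjusted p 0.0723. Mice 5 and 6 of day 42, at 116.3 and 262.4 CPM, also lay above every D14 mouse. *Cyp26b1*, which degrades retinoic acid, was at 679 CPM in mouse 3 of day 42 and had a group median of 9.55 CPM, below the D14 median of 33.5 CPM. Its log2 fold change of 1.68 turned to -1.34 without that mouse (adjusted p = 0.0883). *Igkv19-93*, an immunoglobulin light chain segment, was at 0.487 to 16.9 CPM around a median of 2.32 on day 14 and 1.89 to 35.97 CPM around 9.17 on day 42 (log2 fold change 1.66 ± 0.59, adjusted p = 0.0222). Its call was lost without mouse 2 of day 42.

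Other genes kept their day 14 level while still far from CTRL. Higher than CTRL in every D42 mouse were *Ctsk*, cathepsin K of osteoclasts and activated macrophages, at 123 to 316.5 CPM around a median of 168 on day 14 and 44.2 to 397 CPM around 167.5 on day 42 (log2 fold change 2.61 ± 0.30, adjusted p = 4.32e-10 against CTRL), and *Ccl6*, a macrophage chemokine. The latter was at 322 to 464 CPM around a median of 373 on day 14 and 177 to 652 CPM around 429 on day 42 (log2 fold change 2.101 ± 0.19, adjusted p = 3.32e-13 against CTRL). *Stra6l*, a retinol transport protein, was at 3.82 to 10.4 CPM around a median of 6.096 on day 14 and 2.145 to 9.65 CPM around 5.26 on day 42, with a log2 fold change of 3.08 against CTRL, and *Zranb3*, a DNA-annealing helicase, stood at 2.24. For these 4 the differences between the days were 0.12, 0.24, -0.13 and 0.19 on the log2 scale, chosen to be under 0.25, and the D42 mice of *Ctsk* spread from below the lowest to above the highest D14 mouse. Lower than CTRL in every D42 mouse was *Hlf*, a clock-controlled transcription factor, at 18.4 to 45.1 CPM around a median of 27.8 on day 14 and 21.5 to 34.3 CPM around 25.7 on day 42 (log2 fold change -1.61 ± 0.22, adjusted p = 4.83e-08 against CTRL). So was *Esr2*, estrogen receptor β, at 1.035 to 3.33 CPM around a median of 2.01 on day 14 and 1.725 to 3.655 CPM around 2.12 on day 42 (log2 fold change -1.38 ± 0.26, adjusted p = 3.62e-05 against CTRL). *Adh7*, an alcohol dehydrogenase that makes retinoic acid precursors, and *Bex4* had log2 fold changes of -1.44 and -1.44 against CTRL. A p that misses the threshold does not show that the days were equal: the 95% interval of the difference for *Ctsk* was -0.43 to 0.67 on the log2 scale.

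**Figure D4:**
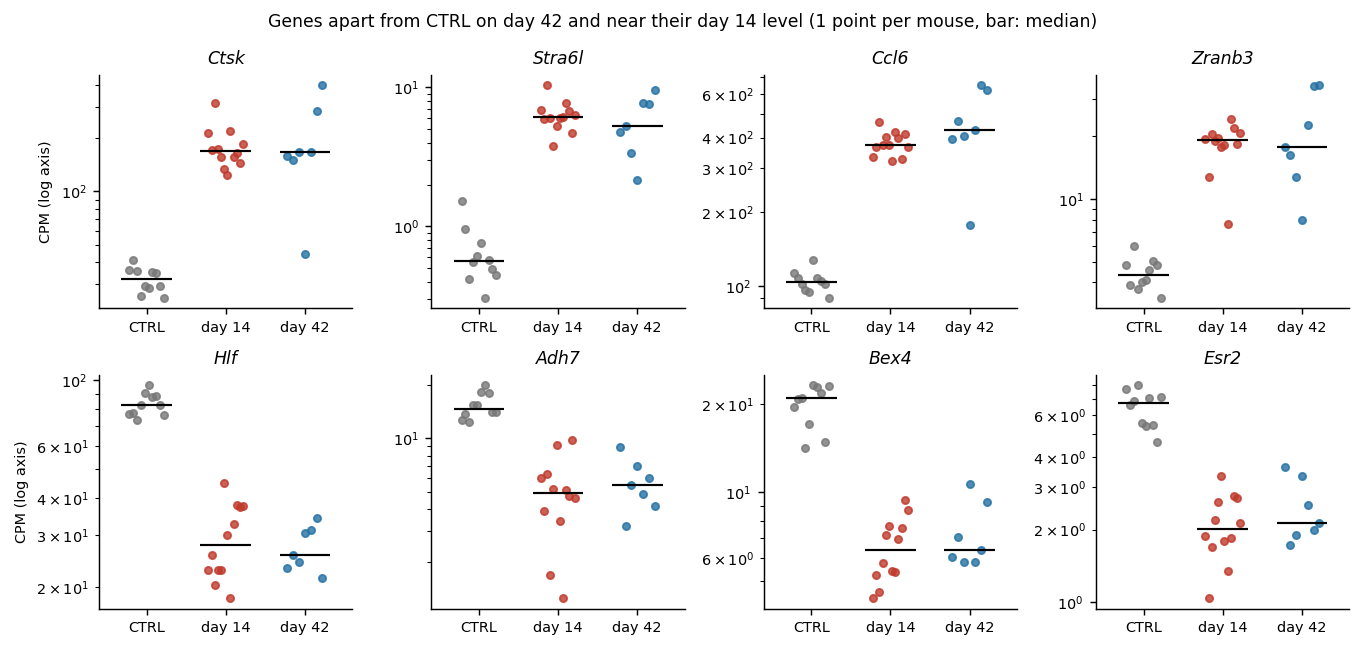
CPM (log axis) of the 8 genes chosen for a D42 level near that of day 14 and outside the CTRL range, in each CTRL mouse (n = 10) and each BLEO-IPF mouse on day 14 (n = 12) and day 42 (n = 7); each point is a mouse and the bar is the group median. *Ctsk*, *Stra6l*, *Ccl6* and *Zranb3* lie above every CTRL mouse on day 42 and *Hlf*, *Adh7*, *Bex4* and *Esr2* below.

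Over the 64 lists, the 7 levels of day 42 lay wholly outside the D14 range in 8 lists: AT2 cells, lung lineage transcription factors, venous endothelium, S phase, mitosis, kinase inhibitors and senescence, matrix crosslinking, and proteoglycans and elastic fibers. All 7 lay within the CTRL range for AT1 cells and lung lineage transcription factors, and likewise for the thymus and neuronal lists. Of the 12 mice of day 14, 8 had already lain within that range for AT1 cells and 0 for lung lineage transcription factors. For the thymus and neuronal lists 8 and 4 had. In 15 lists no D42 mouse lay within the CTRL range, among them lipid-associated macrophages at 0.45 to 2.02 and lysosome genes at 0.15 to 0.83, against CTRL ranges of -0.11 to 0.16 and -0.07 to 0.04. Mouse 7 of day 42 was the highest of its group for fibrotic fibroblasts and mitosis, as given above.

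**Figure D5:**
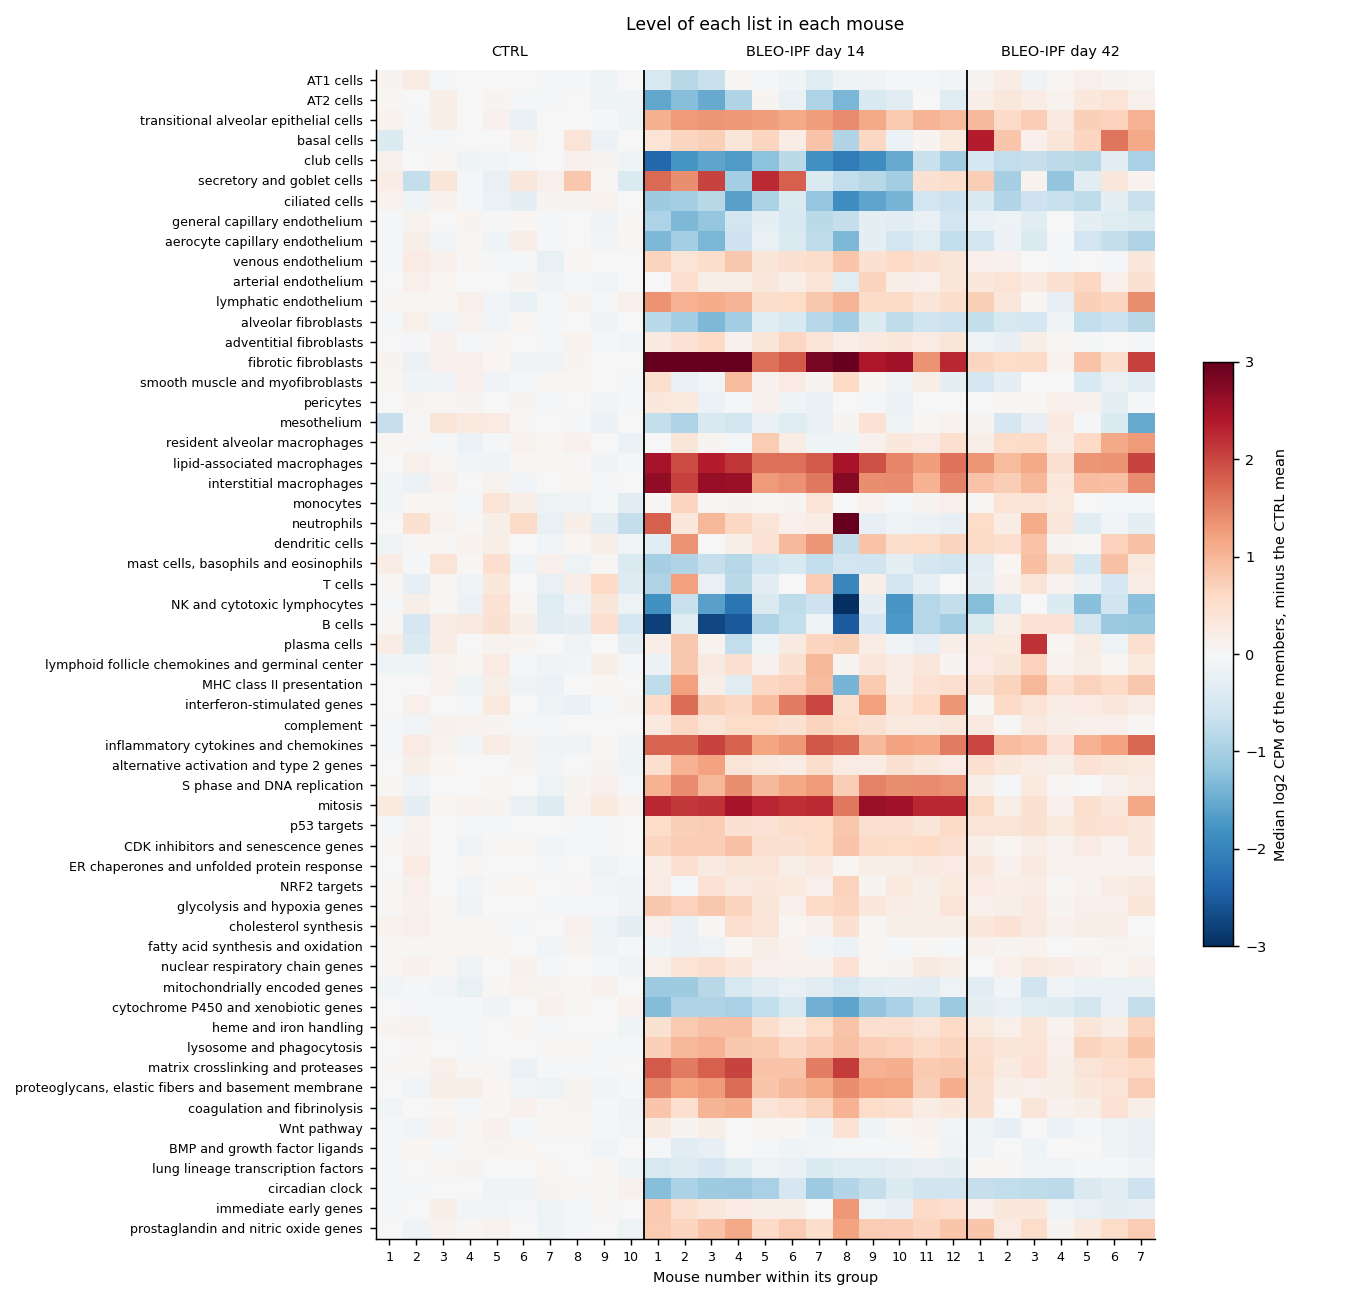
Level of each of 58 lists (rows; median log2 CPM of the members minus the CTRL mean, colour scale limited to -3 to 3) in each CTRL mouse (n = 10), each mouse of day 14 (n = 12) and each mouse of day 42 (n = 7), numbered within its group. Mitosis and fibrotic fibroblast genes are high in the day 14 mice and, on day 42, highest in mouse 7, at 1.15 and 2.05.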

How the data were processed

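Poly A RNA of 1 right lung lobe of each mouse was sequenced with a directional library kit. The authors aligned reads with STAR 2.7.0f to GRCm38 and deposited a table of raw counts for 55536 Ensembl genes (release 96) in 75 libraries, without normalization; how reads were assigned to genes and strands was not given in the sources used here. All 75 columns matched a library name, and no row named anything but a gene. The members, lists and comparisons were chosen with earlier results of these data known.

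Genes that passed edgeR's filter (filterByExpr) were fitted with edgeR 4.0.16 in R 4.3.3 by its quasi-likelihood test, over all 7 groups of mice, with TMM factors and 68 residual degrees of freedom, and p-values were adjusted by Benjamini-Hochberg over all genes tested, with calls at 0.05. The standard error is the log2 fold change over the root of its F statistic. CPM used TMM library sizes, and log2 CPM a prior count of 2. The steps were tested on simulated counts. Of 967 listed genes 50 were not tested, and 22 listed genes had no more than 3 counts in any mouse of day 14 or day 42.

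Genes were named by rule: the 8 largest differences each way without overlap between the days, the 2 members of each list with the smallest adjusted p plus up to 2 called the other way, the 4 largest each way that differed alike from day 14 and CTRL, the 4 largest each way against CTRL within 0.25 of day 14 on the log2 scale, and the first 2 markers of each cell type. Genes of the ranked parts had a mean log2 CPM above 1. These gave 224 genes, and 89 further members of lists were chosen as examples after their values were seen. Promoters were taken from the RefSeq table of GRCm38.p6. DESeq2 1.42.0, other normalizations, filters and sample sets served as alternatives. Some genes that the rule or the examples name are not reported here.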

Additional observations from a re-analysis of the deposited data

Results flagged for a closer look

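Among the 7 mice of day 42, 21 of the 377 list levels and genes examined had 1 mouse set apart from the rest by Dixon's test at 95%, a test that flags about 1 in 20 groups by chance. They were spread over the mice, with 8 in mouse 7, 4 in mouse 4, 3 each in mice 1 and 3, 2 in mouse 5, 1 in mouse 6 and 0 in mouse 2.

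Mouse 7 was highest in the levels of fibrotic fibroblasts (2.054), mitosis (1.154) and thymus genes (0.44), and its value stood apart at 18.53 CPM in *Cthrc1*, 15.73 CPM in *Bub1b*, a kinase of the spindle checkpoint, 1.834 CPM in *Ctla4*, 165.4 CPM in *Tppp3*, where it was the lowest, and 8.782 CPM in *Upk3b*, a mesothelial marker. Mouse 4 stood apart in *Ccl6* (177 CPM, the lowest), *Ccl9*, a related chemokine (15.87 CPM), *Slc11a1* (13.9 CPM) and *Gja5* (67.17 CPM). Mouse 3 was highest in the level of plasma cell genes (2.161) and in *Ighm* (1333 CPM), and stood apart in *Pcna* (58.26 CPM). Mouse 1 stood apart in *Agr2* (1.185 CPM), *Xbp1*, a factor of secretory cells (255.9 CPM), and *Bbc3* (14.52 CPM). Mouse 5 stood apart in *Gja4* (125.5 CPM) and *Il1r2* (0.2812 CPM), and mouse 6 in the level of pericyte genes (-0.28). The mice of day 14 were not put through this test. In some genes, picked after their values were seen, mice 1, 2, 3, 4, 7 and 8 of day 14 lay apart from the other D14 mice. *Sftpc* was at 3342 to 5882 CPM in them and at 7937 to 13540 CPM in the others. *Serpina3n* was at 753.6 to 1606 and 297.4 to 491 CPM. Leaving out 1 mouse at a time cannot show the weight of such a set, and its part in the results was not tested.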

How the results depend on the processing

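The counts of genes called between the days stayed within 1.5 times the reported ones under every other normalization, filter and choice of mice tried, from 1918 to 2802 higher and from 2420 to 3243 lower, and leaving out 1 mouse gave 2102 to 2661 higher and 2601 to 3243 lower. A required log2 fold change of at least 1 left 249 higher and 662 lower. Without a filter on low counts 1165 genes were lower on day 42 than in CTRL, with 38610 genes tested. Replicate numbers are shared by the groups. Same-numbered mice did not deviate together (correlations of -0.1736 to 0.1665), though 7 pairs are too few to exclude that the numbers pair the mice. With the number as a replicate block 2725 genes were higher and 3215 lower. Clock genes then held 7 higher members instead of 3, and general capillary markers 7 instead of 4. The log2 fold change of *Cyp26b1* was 0.06 with the block.

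Of 261 named genes called, 230 kept the call and the direction in all 24 settings. The call of *Cyp26b1* rested on mouse 3 of day 42: its log2 fold change ran from -1.3355 to 1.89 over the fits that left out 1 mouse. The median of NRF2 targets ran from -0.1354 to 0.0219, the latter without mouse 8 of day 14. The median kept its sign in 57 of 64 lists. With day 14 and day 42 mice alone in the fit, general capillary and basal markers held 1 higher gene each, resident alveolar macrophages 4 and B cells 8, and 11 interferon-stimulated genes were lower. The cause of these changes was not tested. Of the listed genes, 22 had no more than 3 counts in any mouse of either day, and differences in them were not detectable at this depth.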
